A study of Mus musculus with 8 samples.

Results

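The receptors for the Fc part of IgG, the adaptors that carry their signal into the cell and the kinases that act on those adaptors were followed in mouse abdominal skin after topical shikonin. The genes were chosen by name, with earlier results of these data known. They were the activating receptors Fcgr1, Fcgr3 and Fcgr4, the inhibitory receptor Fcgr2b, the adaptors Fcer1g and Tyrobp, and the kinases Syk, Fgr and Lyn, 9 genes in all. A gene was used where the probe annotation gave its symbol, current or older, and the probe had an intensity on all 8 arrays. This held for 8 of the 9 genes, with 9 probes, out of 9987 named genes measured. Fgr had 2 probes and the others 1 each, and Lyn was not analysed here.

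Female C57BL/6JNarl mice of 6 to 8 weeks received 100 μl of acetone on the abdomen, or 100 μl of acetone that held 10 μg/μl of shikonin, a naphthoquinone from the roots of Lithospermum erythrorhizon. Skin was taken after 4 h or 24 h, and Cy5-labelled antisense RNA made from each sample was hybridised to 1 Mouse OneArray, a one-colour glass array of mouse gene probes. This gave 4 groups of 2 arrays, named here by agent and time, as acetone 4 h and 24 h and shikonin 4 h and 24 h. All of them carried the solvent, and untreated skin was not analysed here. The methods call the arrays of a group duplicate samples, and the study's results section speaks of independent experiments. No label ties them to separate animals, so the p-values measure the spread between arrays, part or all of which may be technical, and 2 arrays a group limit the precision.

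The arrays had almost the same distribution of intensities, with medians between 1129 and 1130, and the 2 arrays of a group correlated across probes with Pearson's r between 0.986 and 0.992. Intensities under 203.4 (7.67 on the log2 scale), the level under which 5% of all values lay, were set to that floor, and all values were put on the log2 scale. An intensity of 65000 or more was treated as saturated. A fold is a lower bound, written "at least", if the dimmer group had both its arrays at the floor or the brighter group had a saturated one. Of the keratinocyte markers looked for as a check of the labelled tissue, all 8 were measured, and 0 of them lay at the floor in both arrays of an acetone group. Intensities of different probes depend on their sequence, so levels are compared between groups and not between genes.

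Fc gamma receptors sit on myeloid cells, mast cells, natural killer cells and B cells and bind IgG in immune complexes or on opsonised particles. Activating receptors reach the cell surface with the Fc receptor gamma chain, encoded by Fcer1g, whose cytoplasmic tail carries an immunoreceptor tyrosine-based activation motif (ITAM). Kinases of the Src family such as Lyn and Fgr phosphorylate the ITAM, Syk docks on it and passes the signal on to phagocytosis, degranulation, the oxidative burst and cytokine release. Fcgr2b instead carries an inhibitory motif (ITIM) that recruits phosphatases. Tyrobp, the second ITAM adaptor, serves other receptors of myeloid and natural killer cells, including those of the TREM family.

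In shikonin-treated skin all 8 genes were higher than in acetone-treated skin at 24 h, from 2.47-fold for Fcgr2b to at least 31.5-fold for Fcgr1. At 4 h the adaptors, the kinases and Fcgr3 were higher by 2.03-fold to 4.14-fold, Fcgr4 was 1.72-fold lower, and Fcgr1 and Fcgr2b did not pass the test. In limma fits with Benjamini-Hochberg adjustment over all 13853 probes, 5 of the 8 genes passed an adjusted p of 0.05 upwards at 4 h, beside 21.2% of all probes, and 1 passed downwards, beside 25.4%. At 24 h 8 of 8 passed upwards, beside 29% of all probes, while 32.3% of all probes passed downwards. The median log2 difference of the 8 genes was 1.08 at 4 h and 2.95 at 24 h, and that of all probes was -0.06 and -0.02, with each bound taken at its value. These are levels in RNA of whole skin, in which more cells of a type and more RNA per cell cannot be told apart.

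Fcgr2b, Fcgr4, Fcgr3 and Fcer1g lie near each other on chromosome 1, in that order among these genes, while Fcgr1 lies on chromosome 3, Fgr and Lyn on chromosome 4, Tyrobp on chromosome 7 and Syk on chromosome 13. The 250 bases before the transcription start were available for 7 of the 9 genes from RefSeq (GRCm38.p6). They were searched on both strands for GAGGAA, the core letters bound by PU.1, the myeloid factor encoded by Spi1, and for TTCNNNGAA, the letters of a STAT site, 2 motifs that do not overlap in these genes. The promoters of the 4 Fc gamma receptors are shown because the log2 differences of these genes at 4 h ran from -0.78 to 1.21. Capitals mark the matches, and a GAGGAA on the opposite strand reads TTCCTC.
Fcgr1, chr3:96293970-96294219, minus strand: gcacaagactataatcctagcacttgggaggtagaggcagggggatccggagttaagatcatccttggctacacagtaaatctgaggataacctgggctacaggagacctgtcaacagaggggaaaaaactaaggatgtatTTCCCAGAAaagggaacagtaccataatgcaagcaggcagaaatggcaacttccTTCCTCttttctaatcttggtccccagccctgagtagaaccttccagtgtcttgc
Fcgr3, chr1:171059404-171059653, minus strand: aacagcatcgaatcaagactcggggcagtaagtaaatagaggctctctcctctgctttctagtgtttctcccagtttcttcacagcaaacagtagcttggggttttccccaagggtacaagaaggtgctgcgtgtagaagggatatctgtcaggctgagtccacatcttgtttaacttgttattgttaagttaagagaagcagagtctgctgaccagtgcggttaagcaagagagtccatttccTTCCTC
Fcgr4, chr1:171018676-171018925, plus strand: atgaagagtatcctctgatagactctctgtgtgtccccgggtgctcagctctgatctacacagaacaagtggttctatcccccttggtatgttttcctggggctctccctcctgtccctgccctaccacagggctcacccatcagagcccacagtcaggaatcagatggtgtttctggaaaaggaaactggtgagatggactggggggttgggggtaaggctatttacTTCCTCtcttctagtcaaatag
Fcgr2b, chr1:170976072-170976321, minus strand: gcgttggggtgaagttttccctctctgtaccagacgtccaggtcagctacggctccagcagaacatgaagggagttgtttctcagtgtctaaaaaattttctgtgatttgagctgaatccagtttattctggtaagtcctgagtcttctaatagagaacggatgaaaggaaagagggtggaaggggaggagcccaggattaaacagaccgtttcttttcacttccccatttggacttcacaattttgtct
The 3 activating receptors each held 1 GAGGAA. It ended 50 bases before the start in Fcgr1 and 17 bases before it in Fcgr4. In Fcgr3 it ended directly before the first of 2 annotated starts, whose window is shown, and lay 15 to 10 bases before the second. Of the other genes searched, Syk held 1 before the second of its 2 annotated starts, 9 to 4 bases upstream, and Fcgr2b, Fcer1g and Fgr held none. These letters occur in 23.3% of the 32851 mouse promoter windows of this length and in at least 1 window of 25.9% of 27025 genes. A single match is therefore common. TTCNNNGAA was found in Fcgr1 only, as TTCCCAGAA from 109 to 101 bases before the start. It occurs in 7.02% of the windows and in at least 1 window of 8.13% of the genes. A match describes letters and not binding.

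Fcgr1 encodes the high-affinity receptor for monomeric IgG. Its intensity was 790 and 639 on the acetone 4 h arrays, 687 and 903 on the shikonin 4 h arrays, 194 and 198 on the acetone 24 h arrays, and 6524 and 6288 on the shikonin 24 h arrays. The 4 h groups overlapped, both acetone 24 h arrays lay under the floor, and both shikonin 24 h arrays lay far above all the others. At 4 h the log2 difference between shikonin and acetone was 0.15 ± 0.17 (SE, n = 2 arrays a group, limma adjusted p = 0.52). At 24 h it was 4.98 ± 0.17, at least 31.5-fold higher with shikonin (limma adjusted p = 2.53e-08). The acetone arrays themselves fell from 4 h to 24 h, at least 3.49-fold (log2 difference -1.80 ± 0.17, limma adjusted p = 0.000251). Against the acetone 4 h arrays the shikonin 24 h level was 9.01-fold higher (log2 difference 3.17), and the shikonin 4 h level was at least 3.87-fold above acetone 24 h (log2 difference 1.95). The size of this gene's changes therefore depended on the acetone arrays used. With the floor raised to the level under which 25% of all values lay, the 24 h log2 difference was at least 3.81, and the fall of the acetone arrays no longer passed (limma adjusted p = 0.0625).

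Fcgr4 encodes an activating receptor of neutrophils, monocytes and macrophages for certain IgG subclasses. It had intensities of 7291 and 8471 in acetone 4 h, 4389 and 4784 in shikonin 4 h, 1198 and 1087 in acetone 24 h, and 17724 and 17523 in shikonin 24 h. No groups overlapped, and the order ran from acetone 24 h through shikonin 4 h and acetone 4 h up to shikonin 24 h. The gene was the only one of the 8 that fell with shikonin at 4 h, 1.72-fold (log2 difference -0.78 ± 0.12, limma adjusted p = 0.000584), and at 24 h it was 15.4-fold higher (3.95 ± 0.12, adjusted p = 9.45e-09). Between the acetone groups it was 6.89-fold lower at 24 h than at 4 h (-2.78 ± 0.12, limma adjusted p = 1.53e-06). That step was larger than the fall with shikonin at 4 h, and with the acetone 24 h arrays as control the 4 h direction turned, to 4.01-fold higher (log2 difference 2.01). With the acetone 4 h arrays as control the 24 h rise was 2.24-fold (1.17).

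Fcgr3 encodes the low-affinity activating receptor for immune complexes. Its probe gave 25375 and 25575 in acetone 4 h, 54724 and 63831 in shikonin 4 h, 22035 and 22796 in acetone 24 h, and 65482 and 65481 in shikonin 24 h. The shikonin arrays lay above all acetone arrays at both times, and the probe was saturated on both shikonin 24 h arrays and near saturation on the shikonin 4 h arrays. The rise was 2.32-fold at 4 h (log2 difference 1.21 ± 0.08, limma adjusted p = 5.89e-06) and at least 2.92-fold at 24 h (1.55 ± 0.08, adjusted p = 4.07e-07). The acetone groups differed by -0.18 ± 0.08 on the log2 scale, which did not pass (limma adjusted p = 0.129), and what the gene did between 4 h and 24 h of shikonin was measured only as a bound (log2 difference at least 0.15).

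Fcgr2b encodes the inhibitory receptor of the family. It stood at 6648 and 6736 in acetone 4 h, 5852 and 7312 in shikonin 4 h, 6732 and 6850 in acetone 24 h, and 18081 and 15592 in shikonin 24 h. The 3 lower groups overlapped, and only the shikonin 24 h arrays stood apart. The log2 difference was -0.03 ± 0.13 at 4 h (limma adjusted p = 0.856) and 1.31 ± 0.13 at 24 h, a 2.47-fold rise (adjusted p = 1.71e-05). It was the only gene of the 8 whose lowest group was not acetone 24 h, and its acetone groups differed by 0.02 ± 0.13 on the log2 scale (limma adjusted p = 0.931). The extracellular parts of Fcgr2b and Fcgr3 are very alike in sequence. How far either probe also binds the other transcript was not tested.

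**Figure D1:**
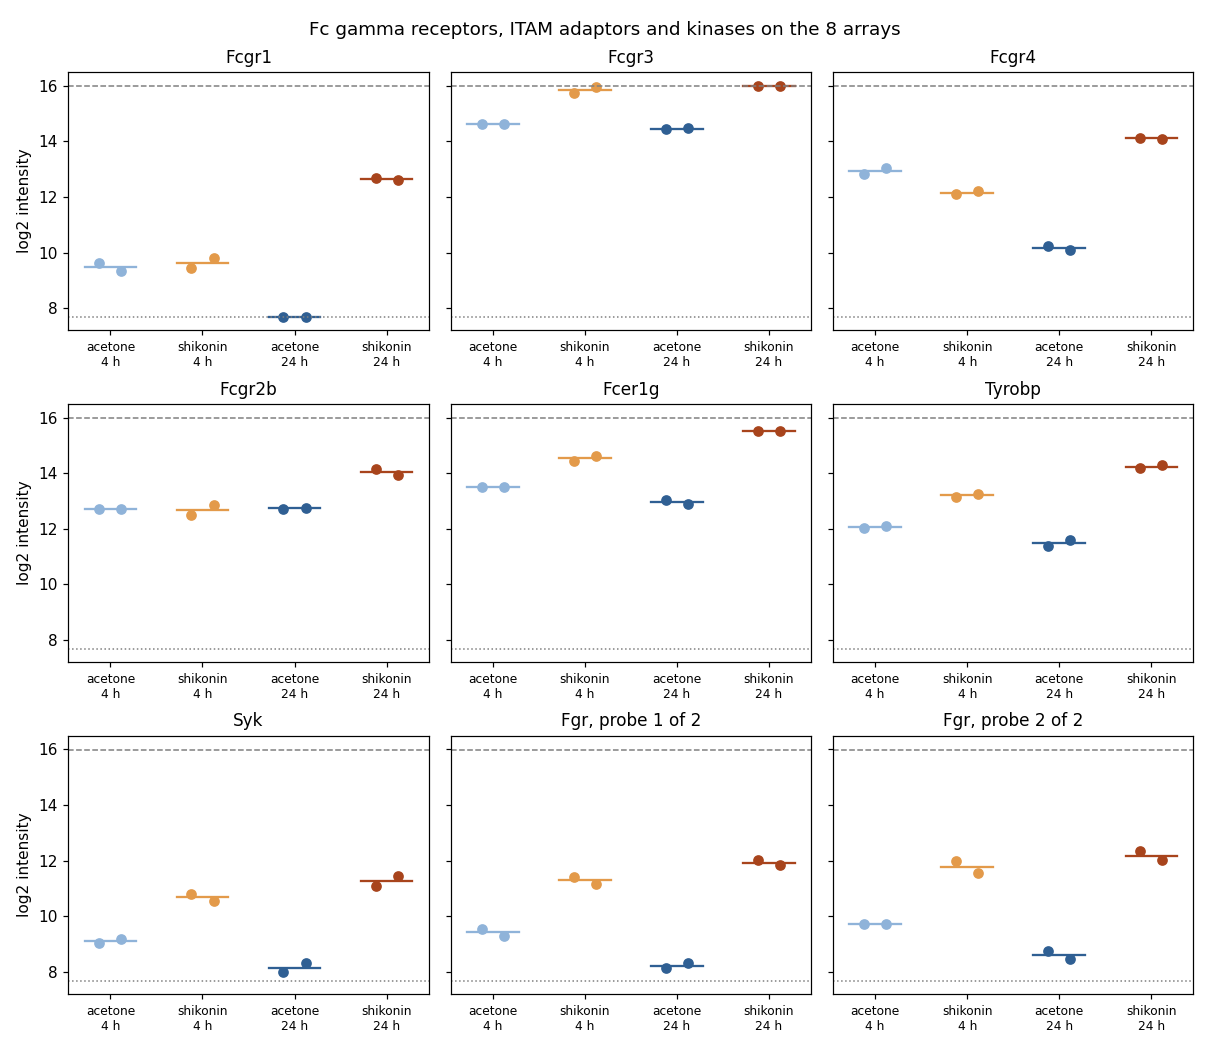
Log2 intensity (vertical axis) of the 9 probes of the 8 genes in the 4 groups (horizontal axis). Each point is 1 array, each bar the mean of a group, the dotted line the floor at 7.67 and the dashed line an intensity of 65000. The shikonin 24 h points are the highest in every panel, Fcgr4 lies lower in shikonin 4 h than in acetone 4 h, and the Fcgr3 points of shikonin 24 h lie on the dashed line.

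Fcer1g, the gamma chain shared by the activating receptors, had intensities of 11624 and 11739 in acetone 4 h, 22187 and 25241 in shikonin 4 h, 8433 and 7550 in acetone 24 h, and 46984 and 46513 in shikonin 24 h. All 4 groups were separate, with acetone 24 h lowest. The rise was 2.03-fold at 4 h (log2 difference 1.02 ± 0.09, limma adjusted p = 3.41e-05) and 5.86-fold at 24 h (2.55 ± 0.09, adjusted p = 3.72e-08). Tyrobp, the adaptor of TREM and related receptors, gave 4188 and 4381, 9023 and 9837, 2645 and 3092, and 18869 and 19843 in the same groups. It had the same order of groups, again with none overlapping, and rose 2.2-fold at 4 h (1.14 ± 0.11, limma adjusted p = 4.44e-05) and 6.77-fold at 24 h (2.76 ± 0.11, adjusted p = 5.82e-08). Both adaptors were lower in acetone 24 h than in acetone 4 h, Fcer1g by 1.46-fold (limma adjusted p = 0.00385) and Tyrobp by 1.5-fold (adjusted p = 0.00572), and without the second acetone 4 h array the Tyrobp value no longer passed (-0.55 on the log2 scale, adjusted p = 0.0521).

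Syk, which binds phosphorylated ITAMs, had intensities of 520 and 585 in acetone 4 h, 1799 and 1509 in shikonin 4 h, 252 and 315 in acetone 24 h, and 2185 and 2802 in shikonin 24 h. All shikonin arrays lay above all acetone arrays. The rise was 2.99-fold at 4 h (log2 difference 1.58 ± 0.19, limma adjusted p = 0.000142) and 8.78-fold at 24 h (3.13 ± 0.19, adjusted p = 6.81e-07). With the acetone arrays exchanged between the times, the values were 5.85-fold at 4 h and 4.49-fold at 24 h. The acetone 24 h level was 1.96-fold below that of acetone 4 h (limma adjusted p = 0.00604), a difference that did not pass without the second acetone 4 h array (adjusted p = 0.0574) or with the floor at 25% of all values (adjusted p = 0.31), where the 24 h log2 difference between shikonin and acetone was 2.44.

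Fgr, a Src-family kinase of myeloid cells, was read by a pair of probes. The brighter, which stands for the gene here, gave 839 and 848 in acetone 4 h, 4092 and 2983 in shikonin 4 h, 428 and 351 in acetone 24 h, and 5161 and 4175 in shikonin 24 h, again with all shikonin arrays above all acetone arrays. It rose 4.14-fold at 4 h (log2 difference 2.05 ± 0.19, limma adjusted p = 3.14e-05), the highest fold among the 8 genes at that time, and 12-fold at 24 h (3.58 ± 0.19, adjusted p = 3.21e-07). The other probe gave log2 differences of 1.87 ± 0.16 and 3.70 ± 0.16 (limma adjusted p = 2.31e-05 and 1.09e-07), close to those of the brighter probe. With the acetone arrays exchanged between the times, the brighter probe gave 9.01-fold at 4 h and 5.5-fold at 24 h. Acetone 24 h was 2.18-fold below acetone 4 h (limma adjusted p = 0.00342).

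**Figure D2:**
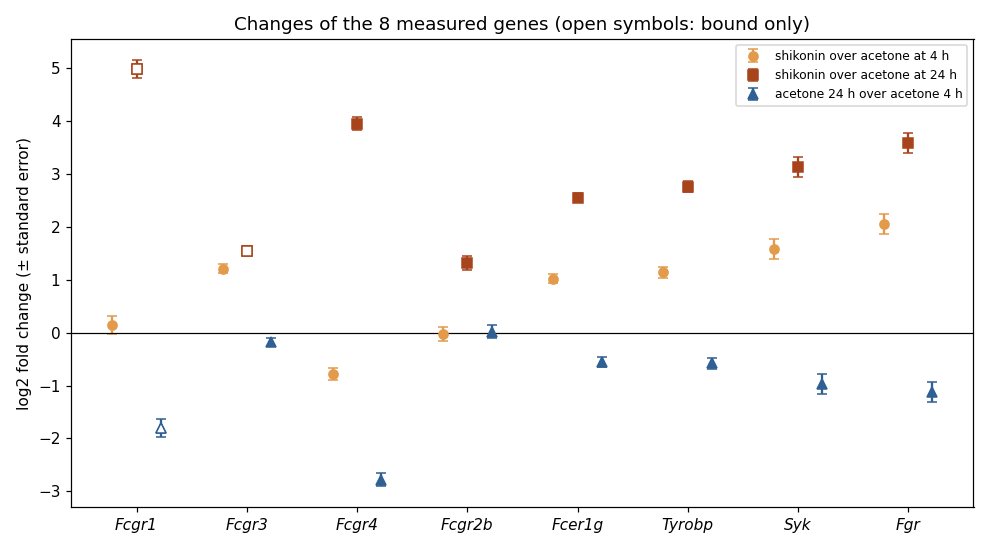
Log2 fold change (vertical axis, ± standard error of the limma fit) of the 8 genes (horizontal axis) for shikonin over acetone at 4 h (circles), at 24 h (squares) and for acetone 24 h over acetone 4 h (triangles), 2 arrays a group. Open symbols are bounds. All squares lie above 0, from 1.31 for Fcgr2b to 4.98 for Fcgr1, the circle of Fcgr4 lies below 0, and 6 triangles passed the test below 0.

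The effect of shikonin was compared between the times by the interaction contrast of the fit. In it 21.1% of all probes passed with a higher log2 difference at 24 h than at 4 h, which includes falls that became smaller. All 8 genes passed in that direction, and their median log2 difference of effects was 1.54. It was at least 4.83 ± 0.25 for Fcgr1 (limma adjusted p = 1.39e-06) and 4.73 ± 0.16 for Fcgr4 (adjusted p = 2.28e-07). The adaptors and kinases lay between 1.53 and 1.62, Fcgr2b at 1.34 ± 0.18 and Fcgr3 at or above 0.33 ± 0.12, a bound that passed narrowly (limma adjusted p = 0.0495) and no longer passed when any 1 of 7 arrays was left out, with adjusted p-values from 0.0825 to 0.13. Only without the second shikonin 4 h array did it pass again.

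Each of these differences is the change between the shikonin groups less the change between the acetone groups. In acetone 24 h against acetone 4 h, 6 of the 8 genes passed downwards, beside 14.2% of all probes, and 0 passed upwards in limma, beside 15.5%. At an unadjusted p of 0.05 the same 6 were counted downwards and 0 upwards. Their median log2 difference was -0.78 and that of all probes 0.06. In shikonin 24 h against shikonin 4 h, 6 of 8 passed upwards, beside 24.2% of all probes. Here Fcgr1 rose 8.13-fold (3.02 ± 0.17, limma adjusted p = 1.63e-06), Fcgr4 3.85-fold (1.94 ± 0.12, adjusted p = 2.02e-06), Fcgr2b 2.57-fold (1.36 ± 0.13, adjusted p = 3e-05), and the adaptors 1.98-fold (Fcer1g) and 2.05-fold (Tyrobp). Syk rose 1.5-fold (limma adjusted p = 0.0279), the brighter Fgr probe was 1.33-fold higher without passing (adjusted p = 0.103), and its other probe passed at 1.56-fold (adjusted p = 0.0102).

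Ratios between genes on the same array were compared across groups, as a description. They were not tested. The log2 ratio of Fcgr4 to Fcgr2b, an activating to the inhibitory receptor, was 0.13 and 0.33 in acetone 4 h, -0.41 and -0.61 in shikonin 4 h, -2.49 and -2.66 in acetone 24 h, and -0.03 and 0.17 in shikonin 24 h. It moved with shikonin by -0.75 at 4 h and by 2.64 at 24 h. For Fcgr1 to Fcgr2b the moves were 0.18 and at least 3.67. For Fcgr3 to Fcgr2b they were 1.25 and at least 0.24, where the 24 h value is held down by saturation of the Fcgr3 probe. The ratio of the adaptors, Tyrobp to Fcer1g, moved by 0.12 and 0.21, so these genes kept nearly the same proportion in all groups. The ratio of Fgr to Syk moved by 0.47 and 0.45.

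The study's own criterion, at least a 2-fold change in both experiments, was counted by pairing shikonin and acetone arrays of equal replicate number. At 4 h it was met upwards by Fcgr3, Tyrobp, Syk and Fgr, 4 of 8 genes beside 7.38% of all probes. Fcer1g, at 2.03-fold on average, did not meet it. At 24 h all 8 genes met it upwards, beside 12.5% of all probes.

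Among all named genes, those whose log2 profile over the 8 arrays, each centred on its own mean, was nearest to that of Fcer1g were Vcan, Lcp2, Tyrobp, Ltb and Spi1. Their root mean square differences from Fcer1g were 0.10, 0.13, 0.13, 0.13 and 0.14 on the log2 scale, among 9986 genes compared. Vcan encodes the proteoglycan versican, Lcp2 the adaptor that Syk phosphorylates, Ltb the cytokine lymphotoxin beta and Spi1 the transcription factor PU.1. Their log2 differences between shikonin and acetone were 0.90 to 1.24 at 4 h and 2.34 to 2.76 at 24 h. Of the receptors, Fcgr3 ranked 206 in likeness (0.38), Fcgr2b 906 (0.63), Fcgr4 2563 (0.87) and Fcgr1 3383 (0.94), all further from Fcer1g than Tyrobp was. The kinases were further too, with Syk at rank 229 (0.40) and Fgr at rank 866 (0.62). The profile of Fcgr3 is clipped by saturation on both shikonin 24 h arrays and that of Fcgr1 by the floor on both acetone 24 h arrays, so their distances and ranks are those of the clipped values. The 8 arrays share groups of 2, and the rank is a description only.

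**Figure D3:**
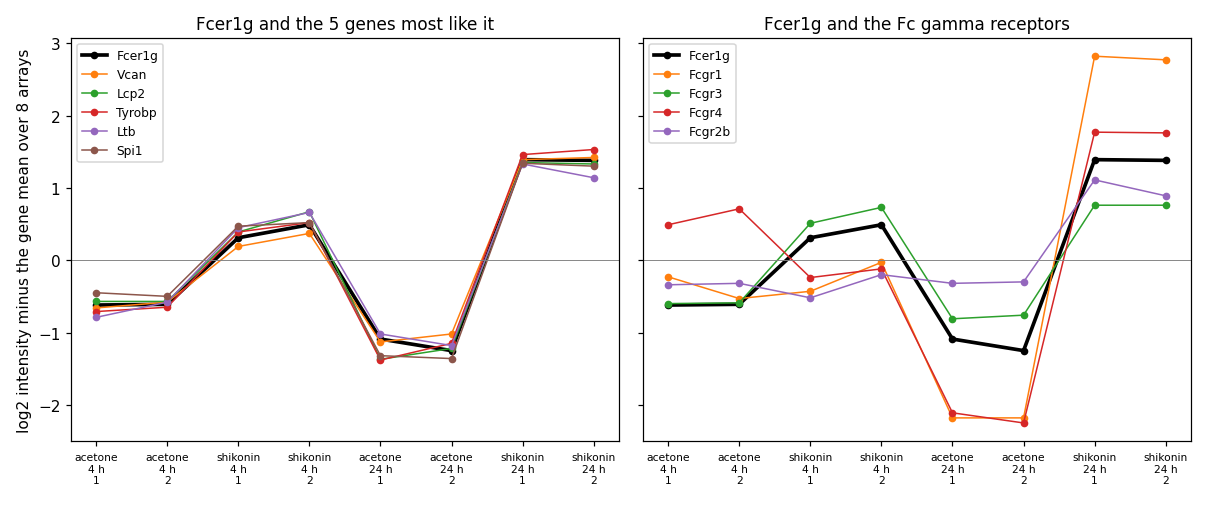
Log2 intensity minus the gene's own mean (vertical axis) on each of the 8 arrays (horizontal axis, group and replicate), with Fcer1g in black, beside the 5 genes most like it (left) and the Fc gamma receptors (right). Lines join the arrays of a gene and do not stand for a time course. The curves on the left run together, while Fcgr1 and Fcgr4 drop further in acetone 24 h and rise further in shikonin 24 h than Fcer1g.

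Other genes of the pathway were taken from lists of 103 genes, of which 67 were measured. At 4 h 26 of them passed upwards and 12 downwards, with a median log2 difference of 0.23, and at 24 h 47 passed upwards and 6 downwards, with a median of 1.38. Of all probes, 21.2% passed upwards and 25.4% downwards at 4 h, and 29% and 32.3% at 24 h, which is the background for the counts of each list. Among 14 other receptors that signal through Fcer1g or Tyrobp or carry an ITAM-like motif, 9 rose and 2 fell at 4 h (median 1.15), and 11 rose at 24 h (median 2.68), where 3 did not pass. Trem1, an amplifier of inflammatory responses in neutrophils and monocytes, rose by at least 4.59 ± 0.16 on the log2 scale at 4 h (limma adjusted p = 8.33e-08) and Clec4e, the receptor Mincle, by 3.61 ± 0.23 (adjusted p = 3.51e-06). Trem2, a lipid-sensing receptor of macrophages, fell by 1.79 at 4 h and was 1.68 higher at 24 h. Klrk1, the receptor NKG2D of natural killer and T cells, likewise fell by 1.11 at 4 h and was 2.14 higher at 24 h. At 24 h Clec4d, the partner of Clec4e, rose by 6.54 ± 0.12 (limma adjusted p = 7.33e-10) and Trem3 by at least 4.59 ± 0.13 (adjusted p = 9.33e-09), and the smallest rise that passed was that of Clec4n (1.56).

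The 6 other Fc receptors measured showed no common direction, with medians of -0.06 at 4 h and 0.01 at 24 h. Fcgrt, the neonatal receptor that protects IgG from breakdown, fell at both times (log2 differences -0.88 ± 0.08 and -0.80 ± 0.08, limma adjusted p = 3.54e-05 and 2.84e-05), and so did Fcrls, an Fc receptor-like scavenger molecule (adjusted p = 0.000279 and 2.09e-06), which reached -1.87 ± 0.13 at 24 h. Fcrl1, a B cell surface molecule, rose at both (at least 1.09 and at least 1.11), Fcmr, a receptor for IgM, at 4 h (at least 0.81), and Fcer2a, the low-affinity IgE receptor, at 24 h (1.61 ± 0.21, limma adjusted p = 0.000115). Of 9 genes for immunoglobulin chains and pentraxins, the ligands of these receptors, 0 were measured.

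The 5 other kinases of ITAM pathways moved little at 4 h, when only Src passed (log2 difference -0.39 ± 0.14, limma adjusted p = 0.0459). At 24 h Btk, a kinase activated after Syk, rose by 1.65 ± 0.13 (limma adjusted p = 5.57e-06), Src by 0.79 and Tec by at least 0.62, while Yes1 fell by 0.79. Among 23 adaptors and effectors downstream of Syk, 10 rose and 4 fell at 4 h (median 0.31), beside 21.2% and 25.4% of all probes, and 17 rose and 3 fell at 24 h (median 1.04), beside 29% and 32.3%. Pik3ap1, an adaptor of PI3-kinase, rose by at least 1.20 and Lcp2 by 1.10 at 4 h, when the membrane adaptors Lat and Lat2 fell by 0.99 and 0.65. At 24 h Fyb, an adaptor bound by Lcp2, rose by 3.16 ± 0.14 (limma adjusted p = 1.06e-07), Vav1, an exchange factor for Rac, by 2.83 ± 0.16 (adjusted p = 6.03e-07) and Pik3ap1 by at least 2.65 ± 0.15 (adjusted p = 4.12e-07). The lowest values at 24 h were those of the B cell linker Blnk (-2.01 ± 0.10, adjusted p = 1.85e-07) and the PI3-kinase subunit Pik3r1 (-1.05 ± 0.12, adjusted p = 4.52e-05).

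The brake on ITAM signalling was read by 19 inhibitory receptors, phosphatases and ligases. At 4 h 5 rose and 3 fell (median log2 difference 0.18), beside 21.2% and 25.4% of all probes, and at 24 h 14 rose (median 1.40) and 5 did not pass, beside 29% of all probes higher. Cd300lf, a lipid receptor with ITIMs, rose at both times (3.91 ± 0.20 and 4.82 ± 0.20, limma adjusted p = 8.14e-07 and 6.52e-08), Pilra rose by 2.50 ± 0.14 at 4 h (adjusted p = 1.42e-06) and Lilrb4a by at least 4.45 ± 0.14 at 24 h (adjusted p = 1.34e-08). Cd72, an inhibitory receptor of B cells and some myeloid cells, fell by 2.52 at 4 h, and Lair1, a collagen receptor, by at least 0.86. At 24 h Cd72 was at 0.17 and did not pass (limma adjusted p = 0.296), and Lair1 was at least 1.38 higher. The smallest rises that passed at 24 h were those of Sirpa (0.86) and of Cbl and Dok2 (both 0.95).

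**Figure D4:**
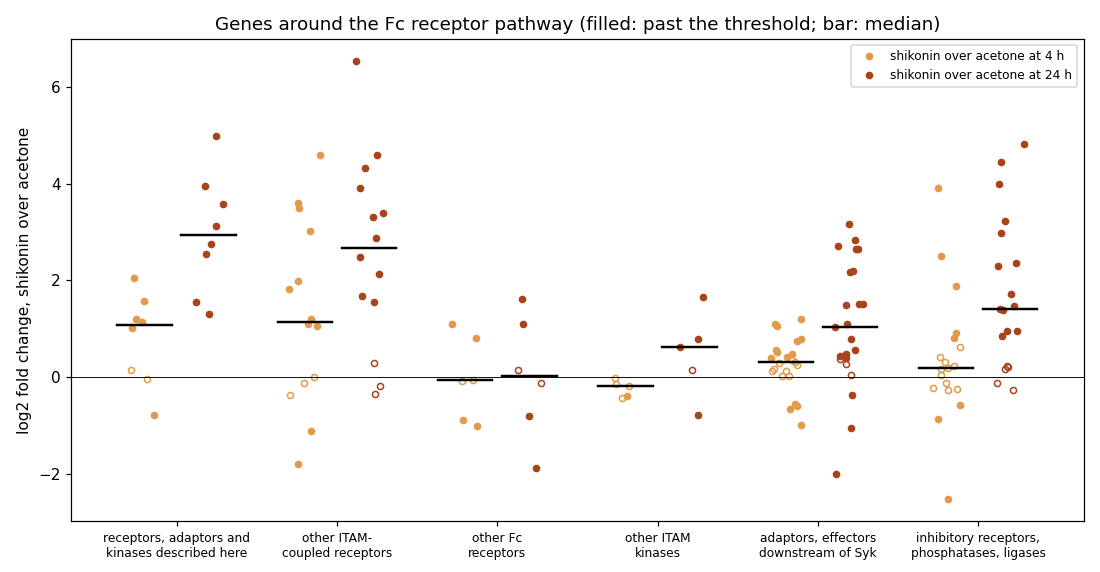
Log2 fold change of shikonin over acetone (vertical axis) at 4 h (light points) and 24 h (dark points) for the 8 receptors, adaptors and kinases and the 5 lists of other pathway genes that were measured (horizontal axis). Each point is 1 gene, filled where it passed the limma test, and bars are medians, which are 1.08 and 2.95 for the 8 genes and 0.31 and 1.04 for the genes downstream of Syk.

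Markers of the cells that carry these receptors were read on the same arrays, each list as its mean log2 intensity per array. The 11 measured neutrophil markers stood at 10.64 to 10.69 in acetone 4 h and 12.94 to 13.03 in shikonin 4 h. They stood at 9.39 to 9.40 in acetone 24 h and 13.35 to 13.36 in shikonin 24 h. Fcer1g, Tyrobp, Syk, Fgr and Fcgr3 had the same order of groups, as did Fcgr1 by its group means, with overlapping 4 h arrays. With shikonin, 9 of the 11 rose at 4 h and 10 at 24 h, beside 21.2% and 29% of all probes. Mpo fell by 2.90 at 24 h, Ngp and Cd177 lay at the floor in both acetone groups, and Mmp8 lay there in acetone 24 h. The S100a8 and Retnlg probes reached saturation in both shikonin groups, so the list means of those groups are held down.

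The 11 monocyte and macrophage markers stood at 12.76 to 12.82, 12.50 to 12.51, 12.11 to 12.16 and 13.24 to 13.34 in those groups. These list means had the order of Fcgr4, but single markers differed. From acetone 24 h to shikonin 4 h their median log2 difference was 0.02, with a range from -1.45 to 4.58. Cd14 stood at 11.36 and 15.94 in these 2 groups, while Csf1r was highest in acetone 24 h (14.43). Cd14 reached saturation in both shikonin groups and Cd163 lay at the floor in acetone 24 h, which limits the means there. At 4 h 2 of the 11 rose and 6 fell, beside 21.2% and 25.4% of all probes, among the latter Csf1r (log2 difference -0.94) and Adgre1 (-1.69). At 24 h 6 rose, beside 29% of all probes, and 1, Csf1r, fell (-0.51), beside 32.3%. Cd68 was at 0.08 at 4 h (limma adjusted p = 0.636) and rose by 2.70 at 24 h. Cd14 rose by at least 3.41 and at least 4.62.

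The mean of the 7 mast cell markers was lower with shikonin at both times. It was 9.98 to 10.47 against 11.44 at 4 h and 10.62 to 10.64 against 11.49 to 11.59 at 24 h. At each time 6 of the 7 fell, beside 25.4% and 32.3% of all probes. Kit passed at neither time (log2 differences -1.21 and 0.23, limma adjusted p = 0.265 and 0.826). Of the natural killer cell markers 2 were measured, Nkg7 and Klrd1, and both fell at 4 h, beside 25.4% of all probes. At 24 h they passed in neither direction (limma adjusted p = 0.102 and 0.309). Nkg7 lay at the floor in both shikonin groups, so its 24 h log2 difference was a fall of at least 0.31, and that of Klrd1 was 0.20. Of the B cell markers only Cd79a was measured, and it passed at neither time. The 6 Langerhans and dendritic cell markers stood at 12.07 to 12.27 in shikonin 4 h and 12.44 to 12.53 in acetone 4 h. Their means were 11.12 to 11.15 in shikonin 24 h and 11.99 to 12.03 in acetone 24 h. At 4 h 1 of them rose and 4 fell, beside 21.2% and 25.4% of all probes. At 24 h 4 of them fell, among them Cd207 (-3.57), beside 32.3% of all probes. The other 2 rose, Ccr7 by at least 2.53 and Itgax by 1.24, beside 29% of all probes. The 8 keratinocyte markers stood at 10.26 to 10.34 in shikonin 24 h and at 14.28 to 14.42 in acetone, where the Krt14 and Krt10 probes were at or near saturation. The part of any of these cell types in the changes of the Fc receptor genes was not tested.

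**Figure D5:**
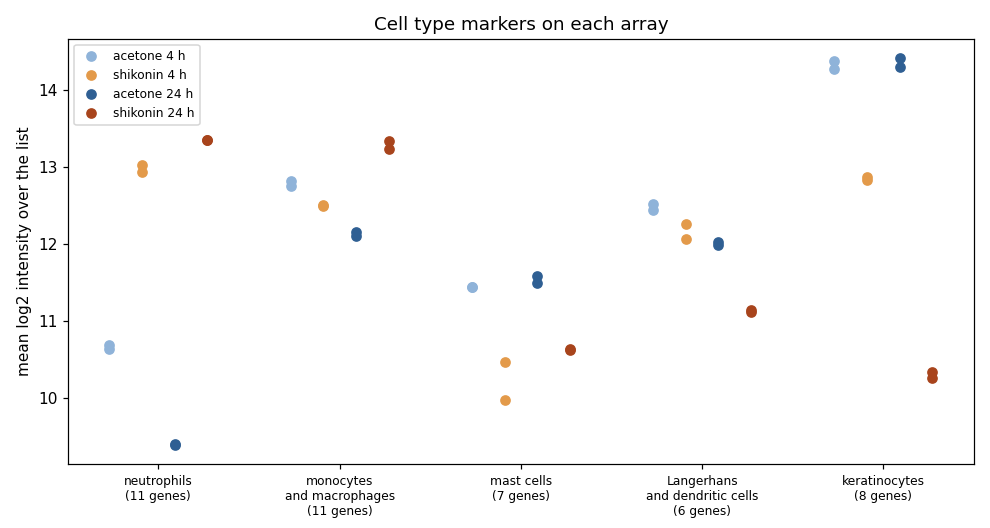
Mean log2 intensity (vertical axis) over the measured markers of 5 cell types (horizontal axis), 1 point an array, coloured by group. Neutrophil markers are lowest in acetone 24 h and highest in shikonin 24 h, macrophage markers are lower in shikonin 4 h than in acetone 4 h, and mast cell and keratinocyte markers are lower with shikonin at both times.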

How the data were processed

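RNA of abdominal skin was measured on 8 one-colour arrays. According to the methods, the authors labelled amplified RNA with Cy5, read the spots with GenePix and called genes present or absent with Spotfire. The deposited table holds 1 linear intensity per probe and array, made by the authors. Its quantiles match between arrays, so it was taken as normalised, and the normalisation, the background correction and the filter behind the 16069 of 29922 probes that are blank on all arrays are not stated in the labels or the methods. Every column was used, and no array was left out.

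Symbols came from the platform annotation. Of 11550 probes with 1 symbol, 1814 were updated to the current one, and 2303 probes had none. A gene with several probes was represented by the brightest, by mean over the arrays. The log2 values of all 8 arrays, with a floor at an intensity of 203.4, entered limma (version 3.58.1, R version 4.3.3), using lmFit with a mean per group and eBayes with an intensity trend, with Benjamini-Hochberg adjustment over 13853 probes and a threshold of 0.05. The script was tested on simulated data. The text names all members, the 2 highest and 2 lowest genes that passed in each pathway list and main contrast, and the 5 genes nearest to Fcer1g. Other genes named among the cell type markers were chosen after their values were seen. The members and lists were chosen with earlier results of these data known. Promoters are the 250 bases before each start in a RefSeq table (GRCm38.p6). No protein sequences were used. Alternatives covered normalisation, floor, dim probes, trend, array weights, replicate block, single time points, left-out arrays, probe means, thresholds, fold criteria and acetone arrays of the other time. Plots used Python 3.11.15 and matplotlib 3.10.9.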

Additional observations from a re-analysis of the deposited data

Results flagged for a closer look

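All 8 genes passed for a different effect of shikonin at the 2 times, by the interaction contrast of the limma fit with Benjamini-Hochberg adjustment over all probes. Fcgr3 passed only narrowly (limma adjusted p = 0.0495), and its call was lost in several of the recomputations described here. The effect at 24 h minus that at 4 h was at least 4.83 on the log2 scale for Fcgr1, at least 0.33 for Fcgr3, 4.73 for Fcgr4, 1.34 for Fcgr2b, 1.53 for Fcer1g, 1.62 for Tyrobp, 1.56 for Syk and 1.53 for Fgr. In the same contrast 21.1% of all probes passed in this direction. Groups of 2 arrays are too small for a check of single outlying arrays.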

How the results depend on the processing

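The counts of genes called kept within 1.5 times their reported size in 153 recomputations and moved in 3. When the acetone arrays were exchanged between the times, 0 genes were lower at 4 h in place of 1. By a 1.5-fold criterion 1 gene was lower at 4 h in place of 0, and by a 3-fold criterion 1 was higher in place of 4. Of the recomputed values of single genes, 577 kept their direction and side of the threshold, 16 no longer passed, 3 newly passed and 4 turned direction. Those that turned were Fcgr4 at 4 h under the same exchange (2.01), and 3 values near 0 at 4 h, Fcgr1 without the second acetone 4 h array (-0.0043) or the second shikonin 4 h array (-0.05) and Fcgr2b without the first shikonin 4 h array (0.13). With each array left out in turn, the 4 h log2 difference ranged from -0.05 to 0.35 for Fcgr1 and from -0.19 to 0.13 for Fcgr2b. The difference of effects of Fcgr3 also failed with arrays centred on their median (limma adjusted p = 0.0501), the floor at 25% (0.0783), no intensity trend (0.151) and the replicate number as a block (0.0526). Nothing ties equal replicate numbers to 1 batch, and deviations of equally numbered arrays correlated between -0.21 and 0.21. The replicate block changed no other call of these genes and moved the probes called at 24 h from 8503 to 8539. Leaving out the dimmer 50% of probes drops Fcgr1 and Syk, so no counts over the 8 genes were made under it. Saturation of Fcgr3 and the floor under Fcgr1 limit those folds to bounds. The cause of the other shifts was not tested.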
